A study of Homo sapiens with 2 samples.

Results

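The 31 genes described here encode the glycolytic enzymes, the glucose transporters *SLC2A1* and *SLC2A3*, the pyruvate dehydrogenase kinases and the lactate transporters *SLC16A1* and *SLC16A3*. They were taken by symbol from the 36601 genes counted, and all 31 were found in both libraries. The libraries came from 2 blood-generating heart-forming organoids (BG-HFOs), 32.7 and 33.10, on day 14. Both were grown from the human embryonic stem cell reporter line hES3 NKX2.5-eGFP, in which eGFP marks *NKX2.5*-expressing cells. Aggregates were embedded in Matrigel, patterned by switching WNT signalling on and then off, and given haemato-endothelial cytokines and growth factors. The 2 organoids are therefore replicates of 1 condition from 1 line, and comparisons were made between cell lineages within them. A p-value of a lineage comparison covers the spread between these 2 organoids, pooled over the lineages, and no wider variation.

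Glycolysis splits glucose into pyruvate, yielding ATP and NADH without oxygen. Most steps can be run by more than one isozyme, often encoded by separate genes. The choice of isozyme is a classical mark of muscle, red cells and leukocytes. Counts per gene do not tell apart forms made from the same gene. Pyruvate is either reduced to lactate by lactate dehydrogenase and exported, or enters mitochondria. There pyruvate dehydrogenase, which the PDK kinases switch off, acts on it. Hypoxia-inducible factors bind a short DNA core, written ACGTG or GCGTG, near many of these genes.

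Lineages were set by raw UMIs (unique molecular identifiers, 1 per captured transcript) of 6 genes each, none of them among the 31. A cell was assigned when at least 3 of the 6 genes were detected, their UMIs summed to at least 6 and that sum was at least 5 times the sum of every other lineage. This assigned 7614 of 16792 cells in organoid 32.7 and 10057 of 19893 in organoid 33.10. Cardiomyocytes (CMs) numbered 2217 and 2326 in the respective organoids, endothelial cells (ECs) 2962 and 3162, and stromal cells 146 and 139. Erythroid cells numbered 600 and 1523, megakaryocytes 936 and 2642, macrophages 380 and 201, granulocyte precursors 251 and 44, and endoderm 122 and 20. The last 2 lineages rest on few cells in organoid 33.10. Stromal cells were few in both organoids. When a cell had only to pass the gate of 1 lineage and of no other, without the 5-times rule, 1033 and 1049 cells were stromal. Stromal levels, shares and calls thus describe a small subset of such cells. The summed level of independent markers of each lineage was higher in it than in every other lineage in both organoids. A single marker can differ from its sum, as *EMCN* did, an endothelial marker at 313 CPM in ECs and 318 CPM in megakaryocytes of organoid 32.7. The libraries held 191152562 and 233818881 UMIs and shared 100 barcodes. Levels are given as CPM, the UMIs of a gene summed over the cells of a lineage and scaled to the same library total in each. Because each molecule is tagged near its 3' end, CPM is not scaled by gene length. Intronic reads were counted, so levels compare better between lineages than between genes. Orders of lineages are given on CPM, whereas fitted fold changes use TMM scaling, on which *HK1* and *PKM* were highest in erythroid cells and granulocyte precursors rather than in CMs. Against a comparison of CPM, TMM scaling shifted fold changes of a lineage together, upward in erythroid cells and downward in stromal cells.

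To show the DNA next to the genes that results below turn on, the 250 bases before the most 5' RefSeq start are printed for 4 genes that rose with a hypoxia list and for *LDHB*, which was not called. They are in the direction of transcription, on GRCh38.p14, and capitals mark ACGTG or GCGTG on either strand, overlapping matches being joined.
LDHA, chr11:18394313-18394562, plus strand: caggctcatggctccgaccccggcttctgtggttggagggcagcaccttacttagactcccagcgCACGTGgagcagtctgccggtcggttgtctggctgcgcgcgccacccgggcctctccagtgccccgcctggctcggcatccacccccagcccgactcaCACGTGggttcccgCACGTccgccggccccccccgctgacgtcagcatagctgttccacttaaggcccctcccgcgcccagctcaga
PGK1, chrX:78103998-78104247, plus strand: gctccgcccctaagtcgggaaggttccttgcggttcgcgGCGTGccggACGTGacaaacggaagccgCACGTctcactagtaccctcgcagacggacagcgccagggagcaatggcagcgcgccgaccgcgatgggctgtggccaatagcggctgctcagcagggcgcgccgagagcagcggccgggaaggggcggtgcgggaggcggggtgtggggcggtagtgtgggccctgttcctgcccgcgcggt
ALDOC, chr17:28576896-28577145, minus strand: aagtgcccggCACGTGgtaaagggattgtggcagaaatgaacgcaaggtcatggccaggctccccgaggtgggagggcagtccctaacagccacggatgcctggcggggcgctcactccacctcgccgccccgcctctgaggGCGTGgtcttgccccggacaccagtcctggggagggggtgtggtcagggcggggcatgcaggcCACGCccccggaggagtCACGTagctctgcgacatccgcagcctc
PFKFB4, chr3:48556804-48557053, minus strand: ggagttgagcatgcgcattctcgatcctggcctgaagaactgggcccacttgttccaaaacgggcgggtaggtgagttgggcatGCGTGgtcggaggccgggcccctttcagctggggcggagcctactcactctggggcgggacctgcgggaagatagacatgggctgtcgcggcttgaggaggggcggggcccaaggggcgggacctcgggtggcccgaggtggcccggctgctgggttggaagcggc
LDHB, chr12:21657843-21658092, minus strand: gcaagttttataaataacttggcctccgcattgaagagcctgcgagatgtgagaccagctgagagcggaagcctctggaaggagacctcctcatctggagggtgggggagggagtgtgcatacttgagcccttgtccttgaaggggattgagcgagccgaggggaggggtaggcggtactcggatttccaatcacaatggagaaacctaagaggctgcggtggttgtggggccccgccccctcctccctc
The *LDHA* window held 3 stretches of capitals, that of *PGK1* 3, that of *ALDOC* 4 and that of *PFKFB4* 1, whereas the *LDHB* window held 0. Windows not printed also went the other way. Those of *SLC2A1*, *PFKP*, *TPI1*, *PGAM1*, *PKM*, *PDK1* and *SLC16A3*, which rose with the list too, held 0 matches. Those of *PFKL*, *ENO3* and *PKLR*, which were not called, held 1, 2 and 2 matches. RefSeq windows were at hand for 28 of the 31 genes. Of these, 16 (57.1%) held a match, against 43.1% of the 27305 windows of all genes. The median GC content of the 28 windows was 68.4%, against 57.6% over all genes, and a short GC-rich core is met more often in GC-rich DNA. A match is a run of letters and was not tested as a binding site.

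The 31 transcripts together took the largest share of UMIs in CMs, 1.27% in organoid 32.7 and 1.21% in organoid 33.10. They took the smallest in ECs, 0.562% and 0.551%. *GAPDH*, which oxidizes glyceraldehyde phosphate, was the most abundant in every lineage, from 1732 CPM in ECs of organoid 33.10 to 3432 CPM in CMs of organoid 32.7. The order of lineages was alike in the 2 organoids for most genes, and 25 of the 31 peaked in the same lineage in both. For 20 of the 31 genes both organoids of the top lineage lay above both of the next. No such count was made over all genes, so neither count sets the 31 apart from other genes.

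**Figure D1:**
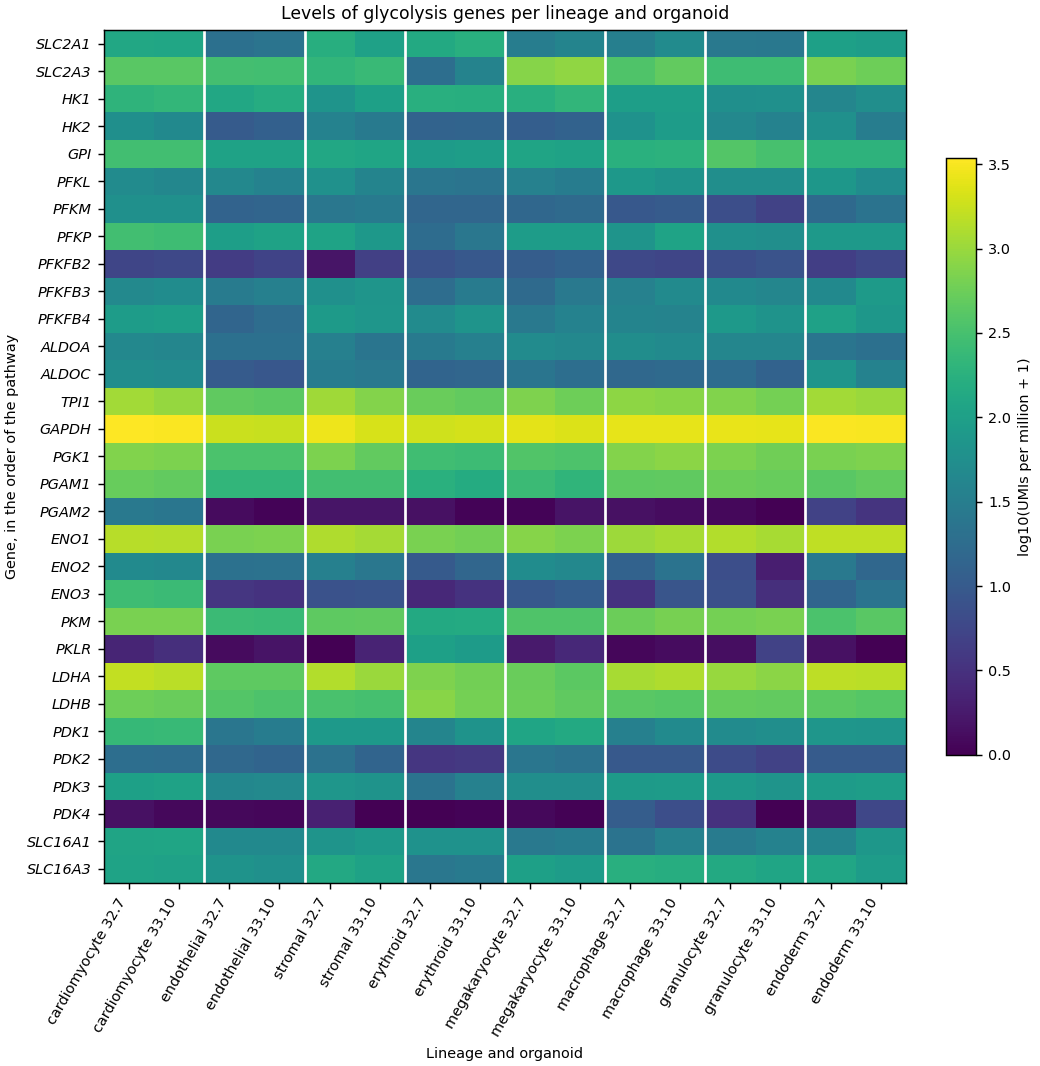
Levels of the 31 genes (rows, in pathway order) in each lineage and organoid (columns), as log10 of CPM plus 1. *GAPDH*, *ENO1*, *LDHA* and *TPI1* were high in every column, whereas *PKLR* stood out in erythroid cells and *ENO3* and *PGAM2* in CMs.

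Each lineage was compared with the mean of the other 7 in an edgeR quasi-likelihood test on summed UMIs, with p-values adjusted by the Benjamini-Hochberg method over all 20330 genes tested. A gene was called at an adjusted p under 0.05, and all 31 passed the filter on low counts. In CMs 21 of the 31 genes were higher and 0 lower, where 31.8% of all genes were called higher and 19.3% lower. Their median log2 fold change was 0.71, against 0.14 over all genes. In ECs 1 gene was higher and 24 lower, where 28% and 21% of all genes were called in these directions, and the median was -0.83, against 0.05. CMs and ECs thus lay at opposite ends when all ECs were summed. That sum held more arterial than venous cells by the gates given below, 1575 and 1553 against 308 and 323. Venous cells did not share the low level of every gene. *LDHA* measured 903 and 920 CPM in them, against 461 and 457 CPM in all ECs. *ENO1* measured 1317 and 1363 CPM, against 667 and 693 CPM. All 31 genes are compared between arterial and venous cells below. With median-ratio scaling the EC counts were 0 higher and 25 lower.

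The lineages other than CMs and ECs were mixed. Erythroid cells had 9 of the 31 genes higher and 13 lower, where 25.8% and 28.1% of all genes were called. Megakaryocytes had 7 higher and 11 lower, beside 23.5% and 18.7%. Macrophages had 11 higher and 6 lower, beside 23.7% and 19%, and granulocyte precursors also had 11 higher and 6 lower, beside 20.7% and 17.6%. DESeq2 gave granulocyte precursors 8 higher and 7 lower. Endoderm had 9 higher and 2 lower, beside 17.2% and 14%. Stromal cells had 2 higher and 7 lower, beside 20.5% and 16.9%, and with median-ratio scaling 5 higher and 7 lower. Several of these shares are near those over all genes, so in these lineages the identity of the genes carried more than their number. Without the macrophage sum of organoid 32.7 the median log2 fold change of the 31 genes in macrophages was 0.12, against 0.17 with it. Without the granulocyte sum of that organoid the median was 0.06 in granulocyte precursors, against 0.15. Without its endoderm sum the median was 0.15 in endoderm, against 0.30, the remaining sum holding 20 cells. Fewer genes were called in each of these fits, among the 31 and over all genes alike.

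**Figure D2:**
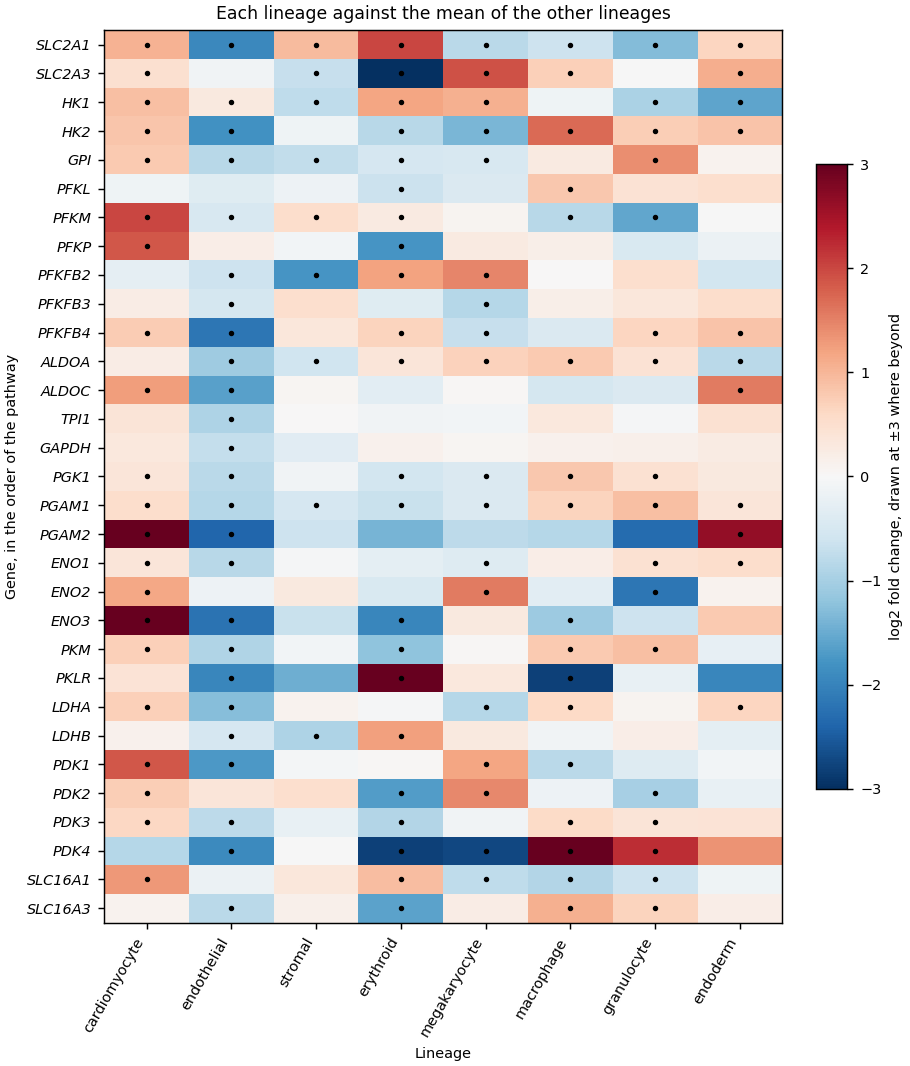
Fitted log2 fold change of each gene (rows, in pathway order) in each lineage against the mean of the other lineages (columns), with a black point where the adjusted p was under 0.05. The CM column is mostly red, with 21 genes higher and 0 lower, and the EC column mostly blue, with 1 gene higher and 24 lower.

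Glucose entry differed between lineages by transporter. *SLC2A1* encodes GLUT1, the transporter of red cells and many embryonic tissues, and measured 139.5 and 169 CPM in erythroid cells of organoids 32.7 and 33.10 (gene span chr1:42925353-42958893, minus strand, GRCh38). It measured 132 and 124 CPM in CMs, 161 and 103 CPM in stromal cells and 101 and 92.4 CPM in endoderm, so that stromal cells overlapped with erythroid cells and CMs, and endoderm lay below them. In ECs it measured 19.2 and 22.1 CPM, the lowest of the 8. The fitted log2 fold change was 2.01 ± 0.14 (SE) in erythroid cells (edgeR adjusted p = 1.5e-08) and -1.94 ± 0.19 in ECs (edgeR adjusted p = 4.66e-07). *SLC2A3* encodes GLUT3, a high-affinity transporter of neurons and platelets, and went the other way. It was highest in megakaryocytes, 776 and 897 CPM, above endoderm (662 and 566 CPM) in both organoids, and lowest in erythroid cells, 17.8 and 36.9 CPM. Its log2 fold change was 1.91 ± 0.16 in megakaryocytes (edgeR adjusted p = 6.97e-08) and -3.38 ± 0.24 in erythroid cells (edgeR adjusted p = 2.01e-08). *SLC2A3* is near-identical to *SLC2A14*, which was counted at 43.2 and 23.7 CPM in endoderm and at most 3.97 CPM in other lineages, so the division of reads between the pair is uncertain.

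The share of *SLC2A1* among the UMIs of these 2 transporters was 88.7% in erythroid cells of organoid 32.7 (95% exact binomial interval 87.1 to 90.1%) and 82.0% in organoid 33.10 (80.8 to 83.2%). In megakaryocytes it was 3.7% and 4.1%, the lowest of the 8 lineages, although erythroid cells and megakaryocytes are held to share a progenitor. Intervals of this kind cover counting error alone. With 10% of each sum removed along the profile of all cells of that organoid, as free RNA, the erythroid share of *SLC2A3* fell to 0% and that of *SLC2A1* rose from a mean of 85.4% to 100%.

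Hexokinase traps glucose by phosphorylation. *HK1*, the housekeeping isozyme, was highest by CPM in CMs (199 and 216 CPM) and overlapped there with megakaryocytes (168 and 211.5 CPM). In erythroid cells it measured 167 and 164 CPM, with a log2 fold change of 1.18 ± 0.11 (edgeR adjusted p = 1.98e-07). *HK2*, the inducible isozyme of muscle and activated leukocytes, was highest in macrophages, 62.2 and 89.8 CPM. It was near 10 CPM in ECs (9.46 and 11.3), megakaryocytes (10.4 and 11.8) and erythroid cells (12.4 and 12.9). The log2 fold change of *HK2* was 1.70 ± 0.16 in macrophages (edgeR adjusted p = 3.26e-07) and -1.81 ± 0.19 in ECs (edgeR adjusted p = 1.18e-06). The share of *HK2* in the pair was 39.7% and 48.3% in macrophages, 43.8% and 37.9% in granulocyte precursors and 58.8% and 36.1% in endoderm. In megakaryocytes it was 5.9% and 5.3%. In ECs *HK1* was the 1 gene called higher, at a log2 fold change of 0.28 ± 0.11 (edgeR adjusted p = 0.0465). With median-ratio scaling, DESeq2 or non-cycling cells 0 of the 31 genes were higher in ECs. The same held without the deepest 5% of cells, without globin and mitochondrial genes, and without the endoderm and granulocyte sums. Each of the other gates gave 1, no low-count filter and an organoid block 2, and free RNA removal 3. *GPI*, which turns glucose phosphate into fructose phosphate, peaked in granulocyte precursors (383 and 324.5 CPM) with CMs next (290.5 and 288 CPM).

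Phosphofructokinase commits sugar to glycolysis, and its muscle and platelet forms were both highest in CMs. *PFKM*, the muscle form, measured 58.7 and 57.7 CPM in CMs and 24.4 and 27.9 CPM in stromal cells, the next lineage, with a log2 fold change of 2.01 ± 0.09 (edgeR adjusted p = 6.45e-11). *PFKP*, the platelet form, measured 287 and 273 CPM in CMs and 95.2 and 107 CPM in ECs, beside 87.6 and 87.9 CPM in megakaryocytes, the cells that make platelets. *PFKP* was the lowest in erythroid cells, 16.7 and 24.5 CPM. *PFKL*, the liver form, varied less, from 22.2 CPM in erythroid cells to 75.5 CPM in macrophages over the 16 sums. Its share of the family was 50.1% and 35.2% in macrophages, 46.0% and 47.8% in granulocyte precursors, and 12.6% and 11.4% in CMs. CMs therefore held 72.6% and 73.1% of their phosphofructokinase UMIs as *PFKP* and 14.8% and 15.5% as *PFKM*.

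The PFKFB enzymes set the level of a fructose bisphosphate that activates phosphofructokinase. *PFKFB4* was lowest in ECs, 13.4 and 17.1 CPM, at a log2 fold change of -2.17 ± 0.18 (edgeR adjusted p = 7.91e-08), and ranged up to 103 CPM in endoderm. *PFKFB3*, known for endothelial sprouting, measured 28.3 and 33.3 CPM in ECs and was lower there than the mean of the other 7 lineages (log2 fold change -0.52 ± 0.18, edgeR adjusted p = 0.0229). Within the family, however, *PFKFB3* took its largest share in ECs, 62.9% and 61.0%, against 32.9% and 34.3% in CMs. *PFKFB2* was the rarest of the 3, from 0.567 to 11.8 CPM, and highest in megakaryocytes (10.2 and 11.8 CPM, log2 fold change 1.47 ± 0.18, edgeR adjusted p = 6.17e-06). It was also called lower in stromal cells, at 0.567 and 3.65 CPM (log2 fold change -1.77 ± 0.42, edgeR adjusted p = 0.00394), the former being 1 UMI, and this call ended without the stromal sum of organoid 32.7.

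Aldolase cleaves fructose bisphosphate. *ALDOA* ranged only from 19.0 to 52.7 CPM, which is low beside the enzymes next to it in the pathway. A readthrough gene, *AC093512.2*, overlaps *ALDOA* on the same strand and was itself counted at up to 4.38 CPM. Reads that match both cannot be told apart, so the level and the share of *ALDOA* are uncertain. By gene span, *GPI*, *PFKP*, *PFKFB4*, *ALDOC*, *PGK1*, *ENO2*, *LDHA*, *LDHB* and *SLC16A3* also overlap another gene on the same strand. What these overlaps do to their levels was not tested. *ALDOC* measured 52.9 and 49.4 CPM in CMs, 69.6 and 35.5 CPM in endoderm, and 9.41 and 8.19 CPM in ECs. Its log2 fold change was 1.24 ± 0.15 in CMs (edgeR adjusted p = 6e-06) and -1.63 ± 0.19 in ECs (edgeR adjusted p = 3.57e-06).

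The steps from triose phosphate to phosphoenolpyruvate were carried by abundant genes. *TPI1*, which interconverts the triose phosphates, ranged from 440 to 1108 CPM over the 16 sums, and *PGK1*, the first ATP-yielding kinase, from 266 to 828 CPM. *PGAM1*, the common phosphoglycerate mutase, ranged from 148 to 542 CPM, and *ENO1*, the common enolase, from 605 to 1583 CPM. The ratio of the highest to the lowest lineage mean was 1.89 for *GAPDH*, 2.33 for *TPI1*, 2.46 for *ENO1*, 2.93 for *PGK1* and 3.30 for *PGAM1*. Of the 8 lineage contrasts, *TPI1* and *GAPDH* were called in that of ECs alone, at log2 fold changes of -0.93 ± 0.19 and -0.71 ± 0.16. *PGK1* was highest in macrophages (768 and 828 CPM, log2 fold change 0.80 ± 0.14, edgeR adjusted p = 0.000164). Genes of this stretch have processed copies in the genome, and reads that match a copy equally well may be lost.

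The muscle isozymes of this stretch were highest in CMs. *ENO3*, muscle enolase (chr17:4948092-4957131, GRCh38), measured 275 and 259 CPM in CMs, whereas no other lineage passed 21.3 CPM. Its log2 fold change was 5.48 ± 0.15 (edgeR adjusted p = 1.26e-13), and it made up 15.6% and 15.4% of enolase UMIs in CMs, where *ENO1* still made up 81.7% and 82.0%. *PGAM2*, muscle phosphoglycerate mutase (chr7:44062727-44065567), measured 26.1 and 23.4 CPM in CMs and at most 3.97 CPM elsewhere (log2 fold change 5.69 ± 0.25, edgeR adjusted p = 4.19e-11). It made up 4.9% and 4.6% of mutase UMIs in CMs. *ENO2*, the neuronal enolase, was shared by CMs (47.4 and 43.6 CPM) and megakaryocytes (52.2 and 43.2 CPM), with log2 fold changes of 1.16 ± 0.19 and 1.56 ± 0.18. The calls of *ENO3* as lower in ECs, erythroid cells and macrophages, and of *PGAM2* as lower in ECs, ended when 10% of each sum was removed as free RNA.

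Pyruvate kinase makes pyruvate and the last ATP of the pathway. *PKLR* encodes the red cell and liver form, whose loss causes a haemolytic anaemia, and measured 100.5 and 86.5 CPM in erythroid cells. No other lineage passed 4.03 CPM, a level that stands for 4 UMIs in granulocyte precursors of organoid 33.10. The log2 fold change was 7.69 ± 0.21 (edgeR adjusted p = 1.14e-12). *PKM*, the form of most other tissues, was lowest in erythroid cells, 138 and 143 CPM, and highest by CPM in CMs, 667 and 677 CPM (log2 fold changes -1.21 ± 0.11 and 0.71 ± 0.10). *PKLR* thus held 42.2% of pyruvate kinase UMIs in erythroid cells of organoid 32.7 (40.3 to 44.1%) and 37.6% in organoid 33.10 (36.3 to 39.0%). In the other lineages it held at most 0.6%. With 10% of each sum removed as free RNA the mean erythroid share was 48.3%, against 39.9% without that step.

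**Figure D3:**
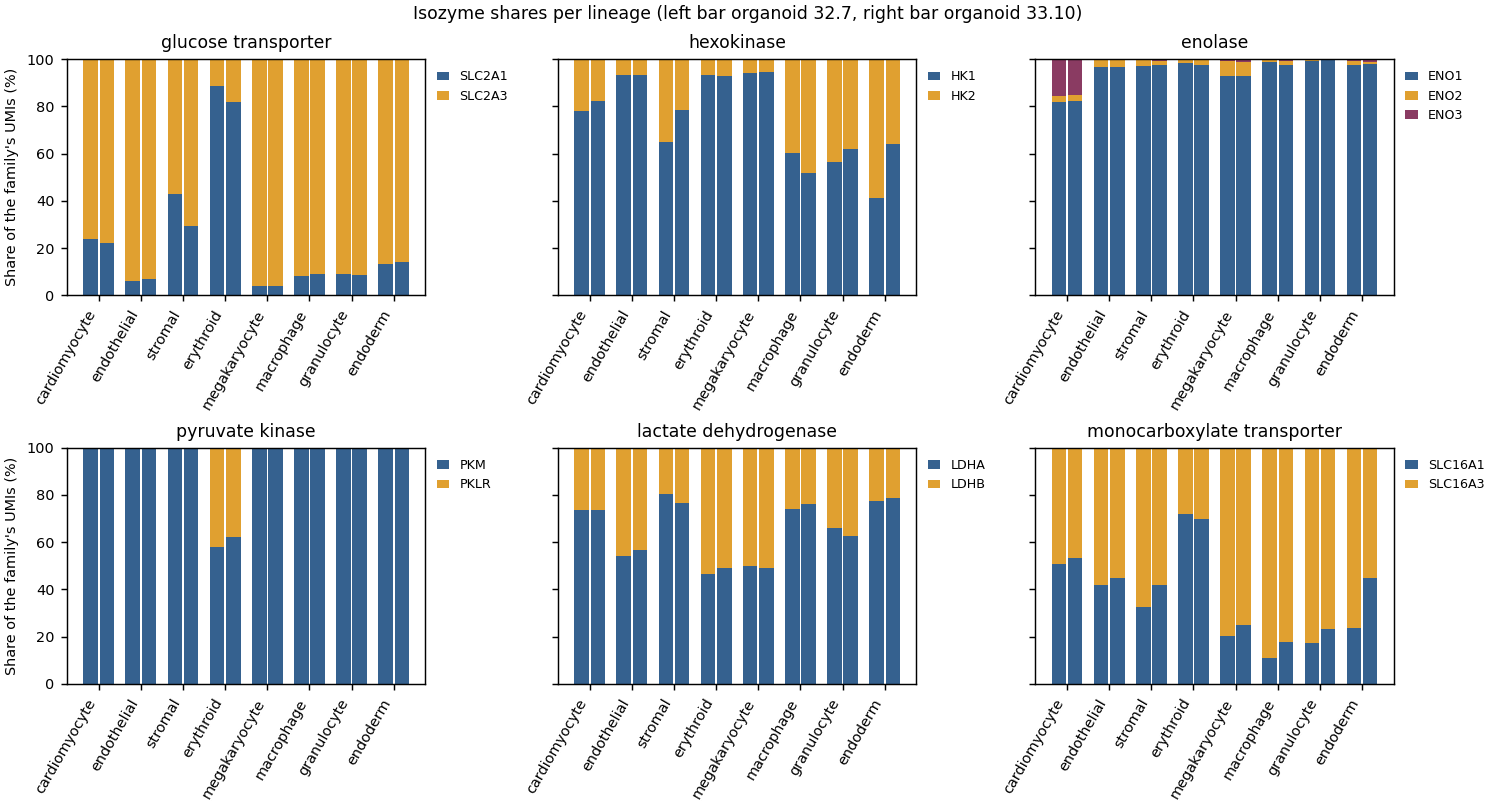
Share of each isozyme in the UMIs of its family (%), by lineage, with organoid 32.7 as the left bar and organoid 33.10 as the right bar. Erythroid cells differ from the other lineages in the transporter and pyruvate kinase panels, with *SLC2A1* at 88.7% and 82.0% and *PKLR* at 42.2% and 37.6%, and CMs in the enolase panel, with *ENO3* at 15.6% and 15.4%.

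Lactate dehydrogenase closes anaerobic glycolysis, and its *LDHA* and *LDHB* subunits form mixed tetramers. *LDHA*, the muscle subunit (chr11:18394560-18408425), measured 1615 and 1462 CPM in CMs, 1512 and 1469 CPM in endoderm, and 461 and 457 CPM in ECs. Its log2 fold change was 0.71 ± 0.15 in CMs (edgeR adjusted p = 0.00104) and -1.27 ± 0.18 in ECs (edgeR adjusted p = 2.39e-05). *LDHB*, known as the heart subunit (chr12:21635342-21757857), was not called in CMs (577 and 527 CPM, log2 fold change 0.12). It was highest in erythroid cells, 808 and 624 CPM, with a log2 fold change of 1.22 ± 0.13 (edgeR adjusted p = 1.37e-06), and lowest in stromal cells, 329.7 and 308 CPM.

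The share of *LDHB* in the pair was 53.3% and 51.0% in erythroid cells and 50.1% and 51.0% in megakaryocytes. It was 46.0% and 43.2% in ECs and at most 37.2% in the other 5 lineages, down to 19.7% and 23.6% in stromal cells. Across the 8 lineage means, *LDHB* also ran apart from the other abundant enzymes. Pairs among *GPI*, *TPI1*, *GAPDH*, *PGK1*, *PGAM1*, *ENO1*, *PKM* and *LDHA* had correlations of 0.57 to 0.95, with a median of 0.84, whereas *LDHB* correlated with these 8 at -0.38 to 0.02, with a median of -0.23. The points are 8 lineages that share libraries and a total of UMIs, and the singling out of *LDHB* followed sight of the values.

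Pyruvate dehydrogenase kinases switch off pyruvate dehydrogenase, which acts on pyruvate inside mitochondria. *PDK1* measured 229.8 and 239.7 CPM in CMs, 118.5 and 139 CPM in megakaryocytes, and 23.2 and 29.99 CPM in ECs. Its log2 fold change was 1.85 ± 0.12 in CMs (edgeR adjusted p = 5.95e-09), 1.18 ± 0.13 in megakaryocytes and -1.72 ± 0.16 in ECs (edgeR adjusted p = 3.92e-07). *PDK4*, a target of fatty acid signals in adult heart, was at 0.46 and 0.196 CPM in CMs and was highest in macrophages, 10.1 and 6.01 CPM (log2 fold change 4.74 ± 0.45, edgeR adjusted p = 4e-07). Its call in granulocyte precursors turned direction without organoid 32.7, and organoid 33.10 held 0 UMIs there, which allows up to 3.02 CPM. *PDK2* measured 23.6 and 20.5 CPM in megakaryocytes and 2.59 and 2.80 CPM in erythroid cells, and *PDK3* ranged from 21.3 to 106.5 CPM with its highest values in CMs. The calls of *PDK4* as lower in ECs, erythroid cells and megakaryocytes ended under several alternatives, and its levels there were at most 0.182 CPM.

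The lactate transporters peaked in different lineages. *SLC16A1* encodes MCT1, which can carry lactate in either direction, and was highest in CMs (114 and 121 CPM, log2 fold change 1.30 ± 0.12, edgeR adjusted p = 2.57e-07). *SLC16A3* encodes MCT4, the exporter of highly glycolytic cells, and was highest in macrophages (172 and 158 CPM, log2 fold change 1.06 ± 0.14, edgeR adjusted p = 1.23e-05). In erythroid cells *SLC16A3* was lowest, 24.0 and 27.1 CPM, and *SLC16A1* made up 71.9% and 70.0% of the pair. In macrophages *SLC16A1* made up 10.8% and 17.8%. No test was run on any isozyme share.

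The smaller lineages had their own sets. Granulocyte precursors were high for *GPI* (log2 fold change 1.39 ± 0.10, edgeR adjusted p = 5.13e-08), *PGAM1* (0.90 ± 0.11) and *PKM* (0.90 ± 0.10), and were lowest for *PFKM* (6.01 and 4.03 CPM, -1.56 ± 0.18) and *ENO2* (6.01 and 1.01 CPM, -2.18 ± 0.36). Their cells were also the most often cycling, 77.3% and 93.2%, against 14.4% and 13.5% in CMs, and the part of cycling in these levels was not tested, since too few non-cycling granulocyte precursors remained. Endoderm was high for *ALDOC* (1.55 ± 0.21) and *SLC2A3* (1.10 ± 0.17) and lowest for *HK1* (41.0 and 54.5 CPM, -1.59 ± 0.16, edgeR adjusted p = 2.41e-06). Stromal cells were high for *SLC2A1* (0.96 ± 0.17, edgeR adjusted p = 0.000332) and *PFKM* (0.53 ± 0.14) and low for *LDHB* (-0.94 ± 0.16, edgeR adjusted p = 0.000275), *HK1* (-0.77 ± 0.13) and *GPI* (-0.74 ± 0.13). Without the stromal sum of organoid 32.7 both of the higher calls ended, leaving 0 genes higher and 7 lower.

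Genes next to the pathway were read from 5 lists that hold none of the 31. Of the 7 pentose phosphate genes, which branch off after hexokinase to make NADPH, 6 were higher and 0 lower in granulocyte precursors (20.7% and 17.6% of all genes), and 0 higher and 6 lower in CMs (31.8% and 19.3%). *PGD* measured 450.3 and 376 CPM in granulocyte precursors and 59.0 and 50.4 CPM in CMs. The counts were 5 higher and 2 lower in erythroid cells (25.8% and 28.1% of all genes), 2 and 0 in megakaryocytes (23.5% and 18.7%), 4 and 0 in macrophages (23.7% and 19%), 1 and 4 in ECs (28% and 21%), 0 and 4 in endoderm (17.2% and 14%), and 0 and 6 in stromal cells (20.5% and 16.9%). The counts of the other 4 lists, with 4 to 11 genes tested, are to be read against the same shares over all genes.

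Of the 10 genes that carry pyruvate into mitochondria or act on it there, 7 were higher and 0 lower in CMs (31.8% and 19.3% of all genes). *PDHA1*, a pyruvate dehydrogenase subunit, measured 139 and 128 CPM in CMs and at most 79.9 CPM elsewhere. In ECs 1 of the 10 was higher and 5 were lower, where 28% and 21% of all genes were called. The 1 was *PDP1*, the phosphatase that undoes PDK action (24.96 and 23.4 CPM, log2 fold change 2.14). In the other lineages the counts of higher and lower were 1 and 5 in stromal cells (20.5% and 16.9% of all genes), 4 and 1 in erythroid cells (25.8% and 28.1%) and 0 and 5 in megakaryocytes (23.5% and 18.7%). They were 1 and 0 in macrophages (23.7% and 19%), 3 and 1 in granulocyte precursors (20.7% and 17.6%), and 3 and 1 in endoderm (17.2% and 14%). CMs were therefore high both for the kinase *PDK1* and for *PDHA1*, the subunit that PDKs phosphorylate.

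Among 11 further sugar entry genes, *SLC2A2*, the liver transporter, measured 19.0 and 7.11 CPM in endoderm and at most 0.46 CPM in other lineages. *HKDC1*, a hexokinase-like gene, measured 11.02 and 14.2 CPM there and at most 1.28 CPM in other lineages. The endoderm of organoid 33.10 gives these values from 20 cells. *SLC2A4*, which encodes the insulin-responsive GLUT4, measured 7.23 and 5.53 CPM in CMs, far under *SLC2A3* and *SLC2A1* there. *HK3* measured 18.3 and 16.8 CPM in macrophages and 20.6 and 12.1 CPM in granulocyte precursors. The counts of higher and lower among the 11 were 5 and 2 in CMs (31.8% and 19.3% of all genes), 3 and 2 in ECs (28% and 21%), 3 and 0 in stromal cells (20.5% and 16.9%) and 1 and 4 in erythroid cells (25.8% and 28.1%). They were 0 and 3 in megakaryocytes (23.5% and 18.7%), 3 and 3 in macrophages (23.7% and 19%), 5 and 1 in granulocyte precursors (20.7% and 17.6%), and 5 and 1 in endoderm (17.2% and 14%). Several of these counts are near the shares over all genes.

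Of 12 side genes of glycolysis and its reversal, 8 were tested. *BPGM*, which makes the bisphosphoglycerate of red cells, measured 42.8 and 44.5 CPM in erythroid cells and at most 18.1 CPM in any other lineage (log2 fold change 2.19). *TIGAR*, a fructose bisphosphatase-like enzyme, was highest in ECs, 79.2 and 69.6 CPM (log2 fold change 1.97), and lowest in erythroid cells, 3.02 and 2.85 CPM. The counts of higher and lower were 2 and 1 in CMs (31.8% and 19.3% of all genes), 1 and 2 in ECs (28% and 21%), 1 and 0 in stromal cells (20.5% and 16.9%) and 3 and 2 in erythroid cells (25.8% and 28.1%). They were 0 and 3 in megakaryocytes (23.5% and 18.7%), 2 and 1 in macrophages (23.7% and 19%), 2 and 0 in granulocyte precursors (20.7% and 17.6%), and 3 and 0 in endoderm (17.2% and 14%). Several of these counts are near the shares over all genes. The 4 lactate transport partners included *BSG*, the chaperone of both transporters, which was highest in erythroid cells, 334 and 299.7 CPM (log2 fold change 1.18). Beside the same shares over all genes, the counts among these 4 were 1 and 1 in CMs, 2 and 0 in ECs, 0 and 2 in stromal cells, 1 and 2 in erythroid cells, 0 and 2 in megakaryocytes, 1 and 1 in macrophages, 2 and 0 in granulocyte precursors, and 1 and 0 in endoderm.

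The study distinguishes arterial (AE) from venous (VE) endothelium, and the same genes were compared between them. AE was set by at least 3 UMIs over *GJA5*, *DLL4*, *CXCR4* and *SOX17* with 0 UMIs of *NR2F2*, giving 1575 and 1553 cells. VE was set by at least 2 UMIs of *NR2F2* with at most 1 UMI of the arterial genes, giving 308 and 323 cells. In AE 1 of the 31 genes was higher and 15 were lower than in VE, where 9.42% and 8.65% of the 19350 genes tested were called in these directions. The median log2 fold change of the 31 was -0.62, against 0.05 over all genes.

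*LDHA* measured 330.5 and 290.1 CPM in AE and 903 and 920.0 CPM in VE, for a log2 fold change of -1.44 ± 0.21 (edgeR adjusted p = 0.000124). *ENO1* measured 488 and 472 CPM in AE and 1317 and 1363 CPM in VE (log2 fold change -1.36 ± 0.17, edgeR adjusted p = 3.2e-05). *TPI1* measured 366 and 317 CPM in AE and 927 and 833 CPM in VE (log2 fold change -1.25 ± 0.23, edgeR adjusted p = 0.000864). The largest fold differences among genes with UMIs on both sides were in *PFKFB4* (6.1 and 7.7 CPM in AE, 45.8 and 49.4 CPM in VE), *ALDOC* (5.9 and 4.0 CPM against 24.8 and 23.8 CPM) and *SLC2A1* (12.4 and 12.1 CPM against 50.7 and 57.0 CPM). Their log2 fold changes were -2.67 ± 0.22, -2.17 ± 0.27 and -2.02 ± 0.23. These 6 genes were named from called genes with large fold changes. That their organoids did not overlap between AE and VE therefore adds nothing to the test.

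The 1 gene higher in AE was *HK1* (141 and 162 CPM, against 91.6 and 119 CPM in VE, log2 fold change 0.64 ± 0.16, edgeR adjusted p = 0.00848), whereas *HK2* was lower (6.9 and 7.4 CPM against 16.6 and 22.1 CPM, log2 fold change -1.31 ± 0.26). The other genes called lower in AE were *GPI*, *GAPDH*, *PGK1*, *PGAM1*, *PKM*, *PDK1*, *SLC16A1* and *SLC16A3*, at log2 fold changes of -0.55 to -1.01. *LDHB* (367 and 322 CPM against 412.5 and 363 CPM) and *SLC2A3* (322 and 304 CPM against 246 and 269.5 CPM) did not pass the test. *PGAM2* had 0 UMIs in VE of both organoids, so no fold is given. VE held more cycling cells, 14.0% and 15.8% against 7.49% and 7.92% in AE. Median depth was 12965 and 10816 UMIs in AE and 10721 and 9363 UMIs in VE, and its part in the result was not tested. In non-cycling cells alone the count was 1 higher and 19 lower, where 1741 and 1682 of 17880 genes were called. With the endothelial sums of organoid 32.7 left out the median log2 fold change of the 31 was -0.65, and with those of organoid 33.10 left out -0.55. *HK1* lost its call in both fits, and fewer genes were called among the 31 and over all genes. Of the 19 genes of the hypoxia list below, 3 were higher and 11 lower in AE. Of the neighbouring lists, *PGM1* alone was lower in AE among the sugar entry genes (12.8 and 12.7 CPM against 63.9 and 75.2 CPM, log2 fold change -2.33). The 7 pentose phosphate and 10 pyruvate entry genes had median log2 fold changes of 0.05 and 0.16.

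**Figure D4:**
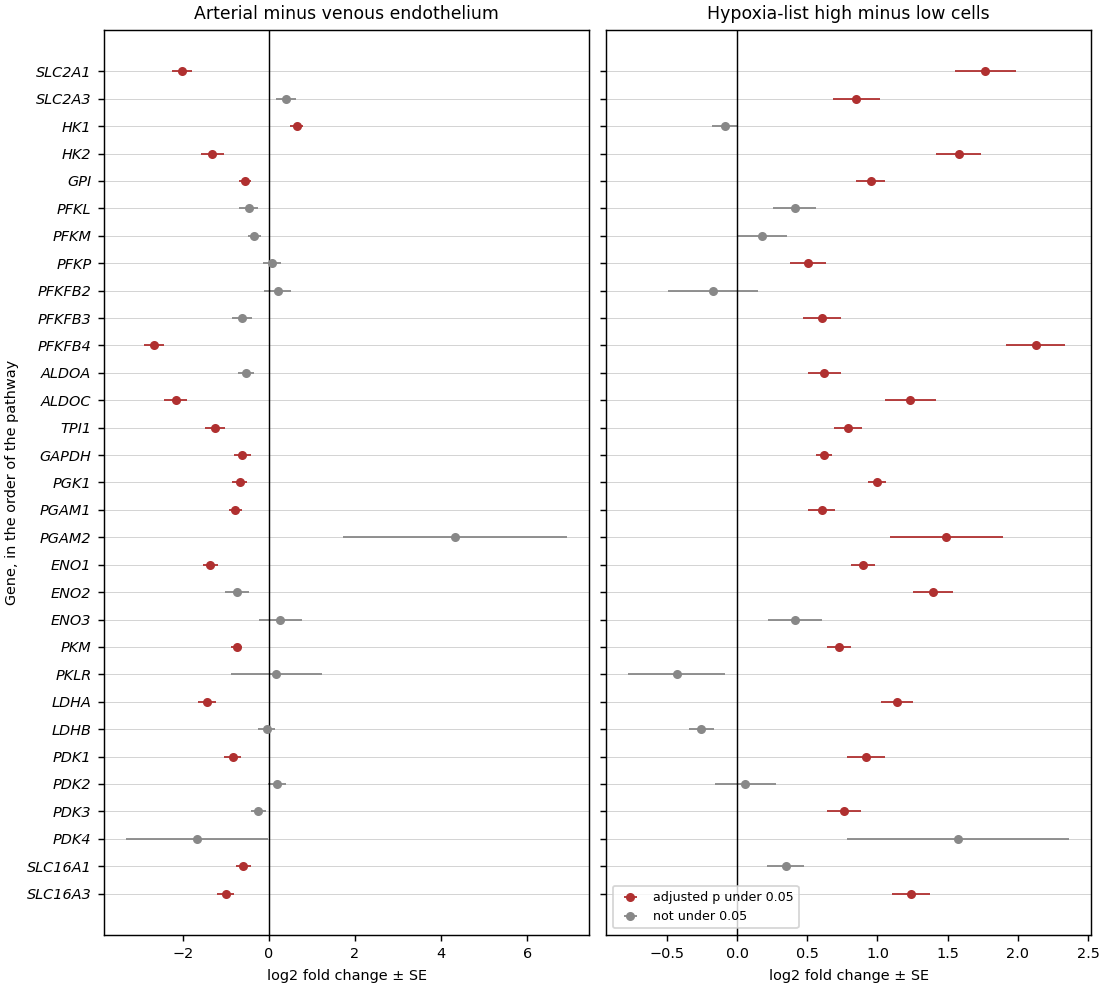
Fitted log2 fold change ± SE of each of the 31 genes in arterial against venous endothelium (left) and in hypoxia-list high against low cells (right), red where the adjusted p was under 0.05. On the left 15 genes lie below 0 in red and *HK1* above it, and on the right 21 lie above 0 in red.

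Whether the genes vary inside lineages with a hypoxia response was asked with a list of 19 hypoxia-responsive genes outside the 31, such as *VEGFA*, *BNIP3*, *CA9* and *NDRG1*. Cells with at least 3000 UMIs were thinned to 3000, and in each lineage and organoid the 25% of cells with the most and the 25% with the fewest UMIs of the list were summed. Granulocyte precursors and endoderm had too few cells, which left 6 lineages, and each combination of organoid and lineage was a block. The spread behind the pooled p-values therefore includes differences of the change between lineages as well as between organoids. In high cells 21 of the 31 genes were higher and 0 lower, where 3.37% and 1.39% of the 13278 genes tested were called. Their median log2 fold change was 0.76, against 0.01 over all genes. All 18 genes of the list that were tested were higher, which the choice of cells fixed.

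*PGK1* rose by a like amount in every lineage, from 527 to 1077 CPM in CMs of organoid 32.7, from 279 to 572 CPM in ECs and from 224 to 438 CPM in erythroid cells. Its pooled log2 fold change was 1.00 ± 0.07 (edgeR adjusted p = 1.58e-10), and the values within the 6 lineages ran from 0.88 to 1.08. *LDHA* rose from 269 to 984 CPM in ECs of organoid 32.7 and from 245.5 to 974.6 CPM in organoid 33.10, and in CMs from 1241 to 2137 CPM and from 1181 to 1976 CPM. Its pooled log2 fold change was 1.14 ± 0.11 (edgeR adjusted p = 2.05e-07). *PFKFB4* rose most, by 2.13 ± 0.21 (edgeR adjusted p = 2.27e-07), from 4.27 to 40.9 CPM and from 2.25 to 47.8 CPM in ECs. *SLC2A1* rose by 1.77 ± 0.22 and *HK2* by 1.58 ± 0.16, while *HK1* did not pass the test (-0.08 ± 0.09, edgeR adjusted p = 0.709).

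The 10 genes that were not called were *HK1*, *PFKL*, *PFKM*, *PFKFB2*, *ENO3*, *PKLR*, *LDHB*, *PDK2*, *PDK4* and *SLC16A1*. *LDHB* measured 630.0 CPM in high and 565 CPM in low CMs of organoid 32.7, 365 and 439 CPM in ECs, and 355 and 499 CPM in macrophages (pooled log2 fold change -0.25 ± 0.09, edgeR adjusted p = 0.110). A missed threshold over the 6 lineages does not show equal levels in the lineage that holds a gene. Within CMs *ENO3* rose from 248 to 363 CPM and from 254 to 333 CPM (0.51 ± 0.12, edgeR adjusted p = 0.000618), and *PFKM* measured 70.4 CPM in high and 56.4 CPM in low CMs of organoid 32.7 and 78.8 and 52.7 CPM in organoid 33.10 (0.50 ± 0.19, edgeR adjusted p = 0.103). Of the 20 genes called higher that had a RefSeq window, 13 (65%) held ACGTG or GCGTG, against 3 of 8 (37.5%) of those not called. The median GC of the 2 groups of windows was 70.4% and 54.6%. *PGAM2* passed at an adjusted p of 0.0493 in edgeR and lost its call in non-cycling cells (edgeR adjusted p = 0.102).

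High cells differed from low cells in other ways. The mitochondrial share of UMIs was lower in high cells of every lineage and organoid, for example 5.32% against 7.84% in CMs of organoid 32.7. Cycling cells were fewer among high CMs (8.22% against 23.5%, and 5.66% against 21.7%) and high macrophages (33.3% against 67.8%, and 37.0% against 63.0%), but more frequent among high megakaryocytes (25.7% against 18.7%, and 16.5% against 15.1%). With cycling cells left out before the split, 20 of the 30 genes tested were higher and 0 lower. Over all genes 295 and 121 of 11661 were called in these directions. The median log2 fold change over the 30 was 0.70, against 0.76 with all cells. How much of the result cycling accounts for was not tested. The part of the mitochondrial share was not tested. Thinning to 1500 UMIs gave 19 higher and 0 lower of 28 tested, where 298 and 111 of 11027 genes were called. Outside the 31, *PGM1* was called higher among 6 sugar entry genes tested (log2 fold change 1.28). The median log2 fold change was -0.11 over 7 pentose phosphate, -0.07 over 9 pyruvate entry, -0.12 over 3 side and 0.10 over 3 lactate transport genes.

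Inside single lineages the same direction was met. Of the 31 genes, 21 were higher in high CMs (3.68% of all genes), 21 in ECs (8.59%), 17 in erythroid cells (1.39%), 17 in megakaryocytes (4.72%), 11 in macrophages (1.73%) and 6 in stromal cells (0.497%). The genes called in all 6 lineages were *GAPDH*, *PGK1*, *ENO1*, *LDHA* and *SLC16A3*. *LDHB* was the 1 gene of the 31 called lower in any of the 6, in high macrophages (-0.64 ± 0.18, edgeR adjusted p = 0.0216) and megakaryocytes (-0.37 ± 0.11, edgeR adjusted p = 0.0194). The size of the rise differed by lineage for some genes. The split was itself unequal. In organoid 32.7 the list summed to 4898 and 1103 CPM in high and low CMs, and to 2641 and 220 CPM in ECs. In organoid 33.10 the levels were 4562 and 1021 CPM in CMs, and 2727 and 255 CPM in ECs. The list's own contrast was thus larger in ECs than in CMs, but not in ECs alone. High and low megakaryocytes had 2638 and 214 CPM in organoid 32.7 and 2651 and 210 CPM in organoid 33.10. Erythroid cells had 2764 and 212 CPM, and 3045 and 286 CPM, and macrophages 3040 and 238 CPM, and 3162 and 449 CPM. Stromal cells had 4714 and 1304 CPM, and 4390 and 903 CPM. The part of the list's contrast in these differences was not tested. A test of each lineage's change against the mean change of the other 5 called 7 of the 31 in ECs (3.27% of all genes), 4 in CMs (2.84%), 2 in erythroid cells (0.369%), 1 in macrophages (0.67%) and 1 in megakaryocytes (1.52%).

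The changes of both glucose transporters differed between lineages. *SLC2A1* rose from 5.22 to 53.2 CPM and from 4.95 to 55.5 CPM in high ECs (log2 fold change 3.37 ± 0.26), and in erythroid cells only from 117 to 257 CPM and from 181 to 245 CPM (0.65 ± 0.16). *SLC2A3* rose from 130 to 758 CPM and from 311 to 972 CPM in macrophages (2.15 ± 0.18), but only from 326 to 492 CPM and from 424 to 458 CPM in CMs (0.38 ± 0.11). In erythroid cells *SLC2A3* rose from 16.3 to 58.3 CPM and from 12.9 to 66.3 CPM (2.18 ± 0.31), which rests on 7 and 14 UMIs in the low cells. Against the other 5 lineages, the change of *SLC2A1* was larger in ECs by 1.46 ± 0.44 (edgeR adjusted p = 0.031) and differed by -1.81 ± 0.25 in erythroid cells (edgeR adjusted p = 1.14e-09). That of *SLC2A3* was larger in macrophages by 1.38 ± 0.21 (edgeR adjusted p = 2.45e-07).

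**Figure D5:**
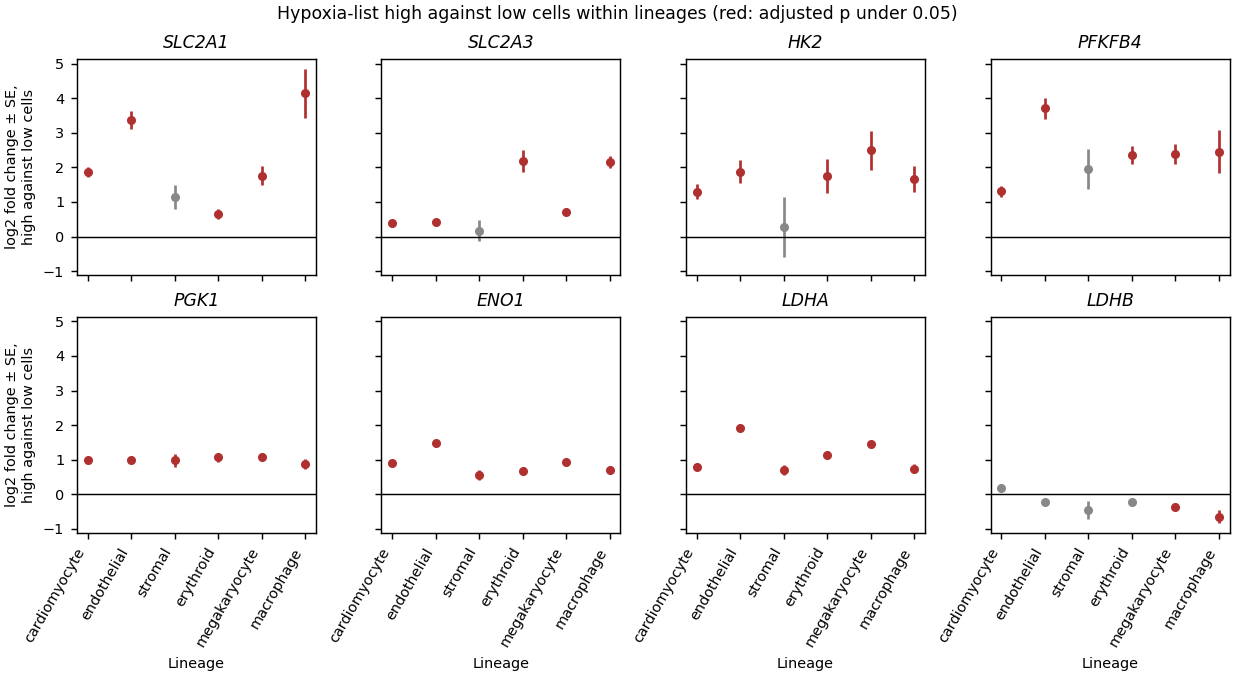
Log2 fold change ± SE of 8 of the genes in hypoxia-list high against low cells within each of 6 lineages, red where the adjusted p was under 0.05. *PGK1* lies between 0.88 and 1.08 in every lineage, *SLC2A1* and *SLC2A3* spread widely, and *LDHB* is at or below 0 outside CMs.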

How the data were processed

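Single-cell 3' libraries of 2 organoids were aligned by the authors with Cell Ranger to GRCh38, intronic reads included. The deposited values are counts of UMIs per gene and cell, before the study's depth equalization, free RNA correction and cell filter. Cells with 50 to 11000 genes and at most 30% mitochondrial UMIs were kept, and no doublet caller was run. The most deeply sequenced 5% of cells were left out as an alternative. UMIs were summed per organoid and lineage and tested with edgeR 4.0.16 in R 4.3.3 (TMM scaling, filterByExpr, quasi-likelihood test, Benjamini-Hochberg adjustment, threshold 0.05), each lineage minus the mean of the others, with 1 estimate of spread per gene over all lineages. An SE is the size of the log2 fold change divided by the square root of its F statistic. Median-ratio (RLE) scaling, DESeq2 1.42.0, no low-count filter, other gates and an organoid block were alternatives. Thinning used a fixed seed, and the fits were tested on artificial counts with known changes. Shares have exact binomial intervals (95%). Intervals cover counting error only, and 0 UMIs allow up to 3. Python 3.11.15, pandas 2.3.3 and scipy 1.17.1 were used.

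The 31 genes and all lists (sugar entry, glycolysis side, pyruvate entry, lactate transport, pentose phosphate, hypoxia) were chosen with earlier results of these data known. A gene was described in each organoid when its adjusted p was under 0.05 with a log2 fold change of at least 1 in size in a lineage contrast, or when its family held isozymes. The others were given by range. From the lists, counts and up to 4 called genes per contrast were named, and genes set beside them were chosen after their values were seen.

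Sums of 1 organoid share that organoid and are paired by it. Between the 28 pairs of lineages, deviations of organoid 32.7 from the lineage mean correlated over genes at -0.040 to 0.379, with a median of 0.086. Gene spans are from GENCODE 44, and promoter windows from RefSeq on GRCh38.p14. A gene of the lists is not reported here.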

Additional observations from a re-analysis of the deposited data

Results flagged for a closer look

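The change of each gene in hypoxia-list high against low cells was tested for a difference between 1 lineage and the mean of the other 5. Of 186 such tests over the 31 genes and 6 lineages, 15 passed at an edgeR adjusted p under 0.05, in 9 genes. In ECs the change was larger than in the other lineages for *SLC2A1* (by 1.46 on the log2 scale), *PFKFB4* (1.62), *TPI1* (0.84), *PGAM1* (0.51), *ENO1* (0.71) and *LDHA* (0.96), and smaller for *SLC2A3* (-0.71).

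In CMs the change was smaller for *SLC2A3* (-0.74), *PFKFB4* (-1.27) and *LDHA* (-0.39), and differed by 0.57 for *LDHB*, which was not called within CMs. In erythroid cells the difference was -1.81 for *SLC2A1* and 1.42 for *SLC2A3*. The latter rests on few *SLC2A3* UMIs in low erythroid cells (7 in organoid 32.7), and removal of free RNA was not run on this split. The difference was 1.38 for *SLC2A3* in macrophages and -0.79 for *SLC16A3* in megakaryocytes. High and low cells were split within each lineage, so the list's own contrast is not equal between lineages.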

How the results depend on the processing

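Of the counts of genes called, 2 moved by more than 1.5 times under an alternative, fits with 1 sum or 1 organoid left out set aside. In stromal cells the exclusive gate called 16 genes (9 higher, 7 lower) in place of 9. That gate held 1033 and 1049 stromal cells, against 146 and 139 with the main gate. Over all genes it called 6960 higher and 4827 lower of 20983, against 4170 and 3442 of 20330. In endoderm DESeq2 called 18 (16 higher, 2 lower) in place of 11. Over all 20330 genes it called 4224 higher and 1963 lower, against 3487 and 2843 with edgeR. The cause was not tested. With 1 sum of a lineage left out, the genes called numbered 18 to 18 in CMs, 19 to 21 in ECs, 6 to 7 in stromal cells, 17 to 21 in erythroid cells, 13 to 14 in megakaryocytes, 11 to 15 in macrophages, 7 to 16 in granulocyte precursors and 1 to 11 in endoderm. With 1 organoid left out they numbered 6 to 9 between AE and VE and 14 to 15 in the hypoxia comparison. These fits were added after seeing the data, and the lone sum was assumed to vary like the other lineages. *PDK4* in granulocyte precursors reversed to -5.57 without the granulocyte sum of organoid 32.7 and was 2.55 without that of organoid 33.10. As values in 1 organoid they were -1.92 in organoid 33.10, where it had 0 UMIs, and 1.86 in organoid 32.7.

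With organoid as a replicate block, the counts of higher and lower were 24 and 0 in CMs, 2 and 25 in ECs, 3 and 8 in stromal cells, 8 and 15 in erythroid cells, 8 and 12 in megakaryocytes, 13 and 8 in macrophages, 13 and 6 in granulocyte precursors, 12 and 3 in endoderm and 1 and 19 between AE and VE. Over all genes the calls rose with the block too, in each of these comparisons. In CMs they went from 6468 higher and 3926 lower to 7015 and 4573 of 20330 genes. Between AE and VE they went from 1823 and 1673 to 2623 and 2137 of 19350. Without the block the hypoxia comparison gave 21 and 0 of 29 tested, where 427 and 242 of 11903 genes were called. The block moved no total of genes called by more than 1.5 times, and the higher calls in ECs went from 1 to 2. Over 71 named results, alternatives gave 809 values of the same call, 48 that lost it and 1 that reversed. These values include the fits with 1 sum or 1 organoid left out. DESeq2 moved the all-gene median from 0.05 to -0.09 in ECs, from -0.12 to -0.24 in erythroid cells and from -0.03 to 0.12 in endoderm. The strict gate left 12 and 12 stromal cells, and 85 and 17 endoderm cells, so these lineages, under 20 cells in at least 1 organoid, were not run. Endoderm in organoid 33.10, with 20 cells, allows up to 7.11 CPM for a gene at 0.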
